A study of Mus musculus with 14 samples.

Results

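The miR-200 family was followed in plasma of 8 GEMM mice with osteosarcoma (OS) and 6 wild-type controls, read with 2 Exiqon mouse PCR panels, 1 sample per mouse. GEMM stands for a genetically engineered mouse model, in which a collagen α1(I) promoter drives Cre in osteoblasts and deletes floxed Trp53, so that the tumors arise in bone. The labels do not say which of these mice had 1 and which had both Trp53 alleles floxed, and no age is given per mouse. The controls were littermates labelled wild type, which the methods give as p53+/+;Cre+/−, and blood of all mice was drawn by cardiac puncture into EDTA. The members are the wells whose miRNA name, without the species prefix, the arm suffix and the asterisk, is miR-200a, miR-200b, miR-200c, miR-141 or miR-429, which gave 9 of the 392 named wells.

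A miRNA is a short RNA that pairs through its seed, bases 2 to 8, with messenger RNAs and lowers their output. Most precursors yield a guide arm, which does this work, and a passenger arm, marked by an asterisk in the older names used on these panels, which is mostly degraded. The miR-200 family is made by epithelial cells, where it represses Zeb1 and Zeb2, the transcription factors that drive the epithelial to mesenchymal transition. It is low in mesenchymal cells, the lineage of bone and of OS.

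The mouse guide arms are shown here because the family divides by seed in one way and by genome position in another. RefSeq sequences were matched to 7 of the 9 members, the exceptions being the rat-named assays rno-miR-200b and rno-miR-200c. The seed is in capitals, and each sequence runs 5′ to 3′. miR-200a and miR-141 share a seed, and miR-200b, miR-429 and miR-200c share the other. No other mouse mature miRNA among the 1738 in the RefSeq table carries either seed.
mmu-miR-200a: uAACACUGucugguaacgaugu
mmu-miR-141: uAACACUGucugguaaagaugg
mmu-miR-200b: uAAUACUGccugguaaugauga
mmu-miR-429: uAAUACUGucugguaaugccgu
mmu-miR-200c: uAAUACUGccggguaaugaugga

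The seeds differ by 1 base, C4U from miR-200a to miR-200b, counted from 1 at the 5′ end. miR-200a and miR-141 differ outside the seed at C17A and U22G, and miR-200b and miR-200c at U11G and A22G over the 22 bases compared. Each seed is thus found in both clusters. Mir200b, Mir200a and Mir429 lie together on the minus strand at chr4:156053905-156055750 (GRCm38.p6), a span of 1846 bases inside the long noncoding RNA gene Gm13648. Mir200c and Mir141 lie on the minus strand at chr6:124717914-124718390, a span of 477 bases between the coding genes Phb2 and Ptpn6, and overlap no other annotated gene.

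The passenger arms measured were those of miR-200b and miR-141, which are the 5p arms of the same hairpins. They share no seed with the guide arms and are shown for the comparison of arms.
mmu-miR-200b*: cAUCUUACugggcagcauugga
mmu-miR-141*: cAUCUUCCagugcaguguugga

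The deposited values are quantification cycles (Cq), on a log2 scale on which a lower value means more miRNA. Over the 768 wells, 13.9% to 24.7% per mouse were blank. A normalized level here is the mean Cq of all retained miRNAs in a mouse minus that miRNA's own Cq there. For that mean alone, a missing Cq was filled with the mean of the control or OS group, or with 38 where the group had no value. A step of 1 unit more stands for a doubling, and every difference between groups is on the log2 scale. The haemolysis marker, the Cq of miR-23a minus that of the red blood cell miRNA miR-451, averaged 5.77 in controls (SD 1.43, n = 6) and 4.19 with OS (SD 1.94, n = 8), with an exact permutation p of 0.117. It was lowest in OS replicates 10, 11 and 12, at 1.05, 2.97 and 2.59. Replicates are separate mice.

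All 9 members were detected at Cq 37 or less in every control mouse, and 7 of 9 in every mouse, against 276 of 389 named miRNAs in the series. The exceptions were mmu-miR-200b* in OS replicate 10, at the upper limit of Cq 40, and rno-miR-200b in OS replicate 19, at Cq 37.04. Neither was called for detection (Fisher's exact test, two-sided, p = 1 for each). These wells were left missing in the fits.

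In control plasma the mean levels of the guide arm assays ran from 2.23 down to -0.17, and the passenger arms lay below all of them. mmu-miR-200a was highest, with a mean level of 2.23, followed by rno-miR-200c at 1.96, mmu-miR-200c at 1.56, mmu-miR-429 at 1.46 and mmu-miR-141 at 1.22. The assays of miR-200b came next, at -0.15 for the mouse name and -0.17 for the rat name. mmu-miR-141* and mmu-miR-200b* closed the order at -2.59 and -4.07. Neighbours in this order that differed by less than 1 SD of their difference over the 6 mice were mmu-miR-200a and rno-miR-200c, mmu-miR-200c and mmu-miR-429, mmu-miR-429 and mmu-miR-141, and the pair of miR-200b assays. Primer efficiencies of the wells are not given in the sources used here, so this order ranks assays and not molecules.

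In mice with OS every guide arm assay of the family was lower in its mean than in controls, while of the passenger arms miR-141* was slightly lower and miR-200b* higher. Among the 9 members, miR-141 fell past an adjusted p of 0.05 (limma over 388 miRNAs, Benjamini-Hochberg), none rose and 8 did not pass. This is 1 of 9 lower, beside 6.44% of all 388 miRNAs called lower and 6.19% called higher. With none higher by limma, the number higher at an unadjusted p under 0.05 was 0 as well, and it was 0 by the methods' t-test. At an unadjusted p under 0.05 in limma, 3 of 9 members were lower (miR-141, miR-200a and miR-200c), beside 14.7% of all miRNAs. A log2 difference of -1 or below, with or without a call, was seen in 5 of 9 members and in 15.5% of all miRNAs. The median difference was -1.04 over the 9 members and 0.00 over all miRNAs tested. In plasma, fewer releasing cells and less miRNA released per cell cannot be told apart.

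**Figure D1:**
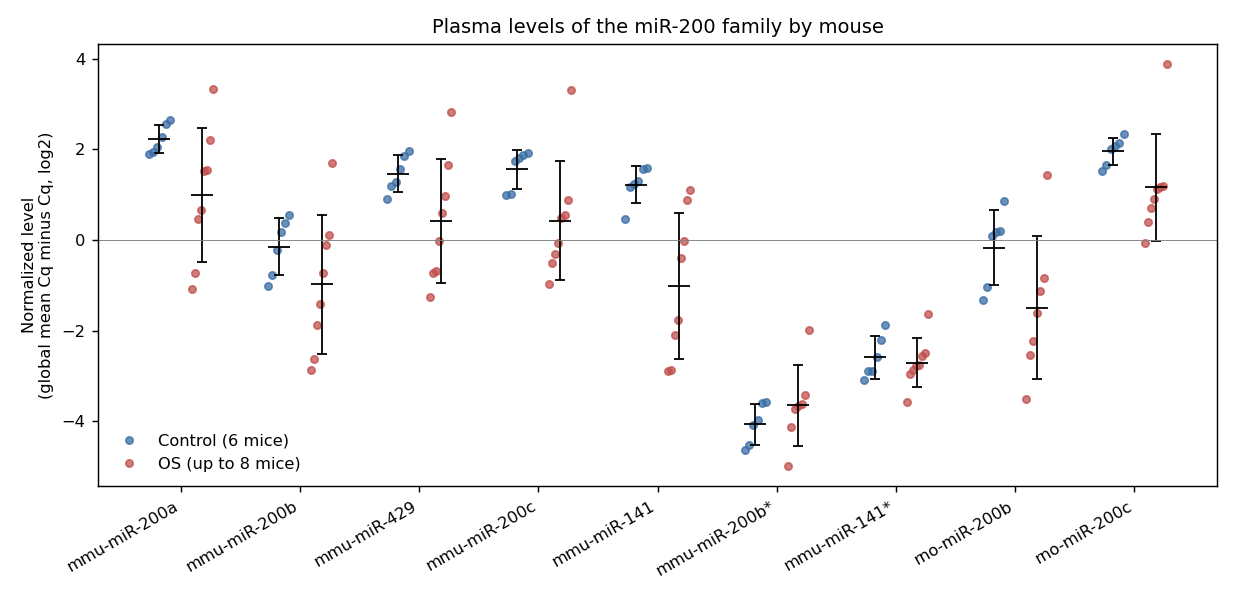
Normalized plasma level (global mean Cq minus Cq, log2 scale) of the 9 assays in control mice (blue, 6 mice) and mice with OS (red, 8 mice, or 7 for mmu-miR-200b* and rno-miR-200b). Each point is 1 mouse, and bars give the mean and SD. Each guide assay spreads more widely in the mice with OS than in the controls. The control SD is 0.83 for rno-miR-200b, 0.63 for mmu-miR-200b and 0.30 to 0.43 for the other guide assays. In each guide assay except mmu-miR-141, 1 mouse with OS lies above the controls.

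miR-141 had the largest difference of the 9 members. Its normalized level ran from 0.46 through a median of 1.28 to 1.58 in controls, and from -2.90 through -1.09 to 1.10 in OS. Of the 8 mice with OS, 6 lay below every control, and the other 2 (replicates 16 and 17, at 1.10 and 0.87) lay within the control range. All 8 lay below the control mean. The group means were 1.22 ± 0.41 (SD, n = 6) and -1.01 ± 1.61 (SD, n = 8), a 4.7-fold lower level in OS with a 95% interval from 1.94-fold to 11.4-fold (log2 difference -2.23 with a standard error of 0.61, adjusted p = 0.0261 by limma). The exact permutation test on this miRNA gave p = 0.00866.
The call on miR-141 was lost under several alternatives. This was so without control replicate 3 (limma adjusted p = 0.0559), without control replicate 14 (0.0632) and without OS replicate 11 (0.0511), with the log2 difference between -2.21 and -2.08. Once the haemolysis marker entered the model the log2 difference was -1.50 (limma adjusted p = 0.166), and without OS replicates 10, 11 and 12, which had the markers under 3, it was -1.26 (limma adjusted p = 0.194). Under 3 further alternatives the call was lost with hardly any move of the log2 difference. It was -2.22 without control replicates 3 and 13, which had the markers over 7 (limma adjusted p = 0.0986), -2.29 when scaled to 3 reference miRNAs (0.0634) and -2.23 by the methods' t-test (0.0722). Of these references, miR-103 was itself called lower in OS (-1.28, limma adjusted p = 0.0295). miR-423-3p (1.03, limma adjusted p = 0.108) and miR-191 (0.42, limma adjusted p = 0.498) were higher and not called. The part of haemolysis in the difference of miR-141 was not tested beyond the fits above.

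miR-200c, encoded beside miR-141, was split among the mice with OS. Its level ran from 0.99 through 1.78 to 1.92 in controls and from -0.97 through 0.21 to 3.30 in OS. No mouse with OS lay inside the control range: 7 were below every control and OS replicate 16 was above every control. The rat-named assay rno-miR-200c gave the same count, 7 below and replicate 16 above at 3.88, with controls from 1.53 to 2.33. The log2 differences were -1.14 for mmu-miR-200c (95% interval -2.23 to -0.04, limma adjusted p = 0.149) and -0.80 for rno-miR-200c (-1.80 to 0.20, limma adjusted p = 0.257). Neither passed with all mice. Without OS replicate 16 the log2 differences were -1.55 (limma adjusted p = 0.0154) and -1.18 (0.0319), and both passed. So did rno-miR-200b (-1.81, limma adjusted p = 0.0319) and miR-141. Thus 4 members were lower in place of 1, and 2 of the 4 are assays of miR-200c. Over all miRNAs 36 were called in that fit, both directions together, against 49 with all mice.

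None of the members of the cluster on chromosome 4 passed. miR-200a, which shares the seed of miR-141, ran from 1.90 through 2.17 to 2.64 in controls and from -1.09 through 1.09 to 3.34 in OS. Of the 8 mice with OS, 6 lay below every control, 1 above every control and 1 within their range. Its log2 difference was -1.24 (95% interval -2.42 to -0.06, limma adjusted p = 0.146). miR-429 ran from 0.91 through 1.42 to 1.97 in controls and from -1.26 through 0.29 to 2.83 in OS, with 5 mice below and 1 above every control. Its log2 difference was -1.04 (-2.17 to 0.09, limma adjusted p = 0.200).
miR-200b ran from -1.01 through -0.02 to 0.54 in controls and from -2.88 through -1.08 to 1.70 in OS, with 4 mice below and 1 above every control. Its log2 difference was the smallest among the guide arms of the mouse-named assays, at -0.83 (-2.09 to 0.43, limma adjusted p = 0.365). The rat-named assay rno-miR-200b gave -1.32 (-2.65 to 0.02, limma adjusted p = 0.165) over 6 controls and 7 mice with OS. For each of these assays the mouse above the controls was OS replicate 16.
The uncalled guide arms also came closer to 0 with the haemolysis marker in the model and without OS replicates 10, 11 and 12. In that order the log2 difference was -0.65 and -0.37 for miR-200a, -0.64 and -0.25 for miR-429, and -0.50 and -0.16 for miR-200b. It was -0.84 and -0.72 for mmu-miR-200c, -0.60 and -0.49 for rno-miR-200c, and -1.09 and -0.71 for rno-miR-200b. None passed in either fit, and the part of haemolysis was not tested further.

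The passenger arms showed no call and no common direction. Their mean Cq was nearer the limit of 37 than that of any guide arm assay. It was 34.3 in controls and 34.8 in OS for miR-141*. For miR-200b* it was 35.7 and 36.3, the latter with the well at Cq 40 included. miR-141* ran from -3.09 through -2.74 to -1.87 in controls and from -3.58 through -2.78 to -1.64 in OS, and 6 of 8 mice with OS lay within the control range. Its log2 difference was -0.12 (95% interval -0.82 to 0.59, limma adjusted p = 0.850), and its sign turned when scaled to the median (0.02). It was -0.57 with each panel on its own mean (limma adjusted p = 0.313) and -0.55 with unscaled Cq (0.513). miR-200b* ran from -4.64 through -4.03 to -3.57 in controls and from -4.99 through -3.67 to -1.99 in OS, over 7 mice. Its log2 difference was 0.42 (-0.47 to 1.30, limma adjusted p = 0.528), 0.13 with missing values set to Cq 38, and -0.08 with unscaled Cq. The groups overlapped for all 9 members, against 2.84% of all miRNAs whose groups did not overlap in either direction.

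**Figure D2:**
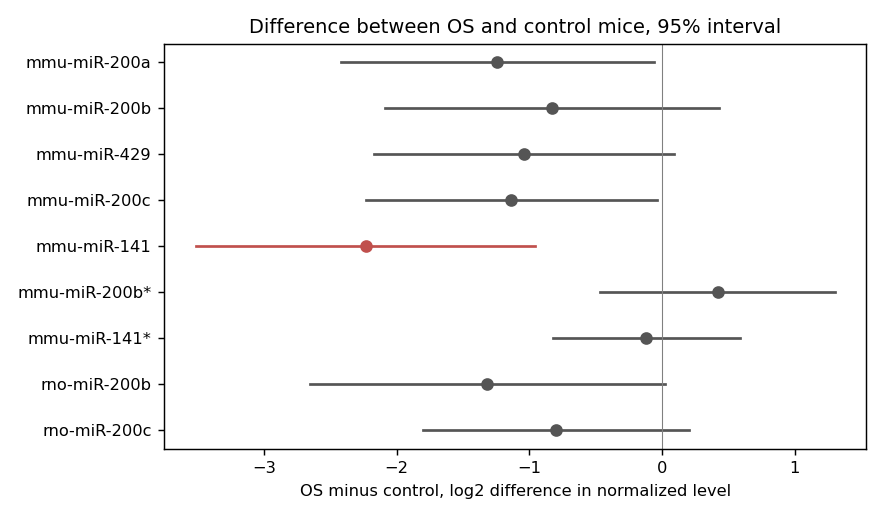
Log2 difference in normalized level, OS minus control, for the 9 assays (limma, 6 control mice and 7 or 8 mice with OS). Points are the estimates and lines their 95% intervals. The assay past an adjusted p of 0.05, mmu-miR-141, is in red at -2.23, and the passenger arms lie at -0.12 and 0.42.

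The mice with OS differed more among themselves in the guide arms than the controls did. For the 276 miRNAs with a value in all mice, the median SD was 0.68 in controls and 0.84 in OS. For miR-141 the SD was 0.41 in controls and 1.61 in OS, which was higher than in 94.2% of these miRNAs. For miR-200a it was 0.32 and 1.48 (higher than in 90.2%), for miR-200b 0.63 and 1.54 (92.0%), for miR-429 0.41 and 1.38 (87.3%) and for miR-200c 0.43 and 1.32 (85.1%). miR-141* had an SD of 0.47 in controls and 0.55 in OS, the latter higher than in 16.3% of the miRNAs. Its mean Cq, 34.3 in controls and 34.8 in OS, was nearer the limit of 37 than those of the guide arms. These percentages describe the spread and were not tested.

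In most mice with OS the guide arms lay on the same side of the controls, though by unequal amounts. In OS replicate 12 the 5 mouse-named guide arms deviated from the control means by -3.01 on average on the log2 scale, in replicate 10 by -2.42 and in replicate 11 by -2.16. These are the mice with the lowest haemolysis markers. Within replicate 10 the single guide arms ran from -4.12 to -0.59. In replicates 18 and 19 the mean deviations were -1.31 and -1.87, at markers of 6.85 and 4.42, which are inside the control range of 4.11 to 7.21. All 5 guide arms were below every control in replicates 11, 12, 18 and 19, and 4 of 5 in replicate 10. The shares of all 276 miRNAs below every control were 26.1%, 33.3%, 21.0% and 24.3% in the former mice and 33.3% in replicate 10. Replicates 15 and 17 lay closer to the controls, at -0.61 and -0.19.
OS replicate 16 stood on the other side. Its guide arms deviated by 1.19 on average and from -0.12 to 1.85 singly, with 4 of 5 above every control and miR-141 within the control range. Its marker was 5.03. Over all 276 miRNAs measured in every mouse, 23.2% were above and 17.4% below every control in this mouse, and in replicate 12 the shares were 27.9% and 33.3%. Among the 10 epithelial assays outside the family measured in every mouse, replicate 16 had 2 above every control and 2 below. Those above were miR-375 of glands and gut and the rat-named assay of the kidney and gut miRNA miR-215. Replicates 10 and 15 also had 2 of the 10 above, replicate 15 with rno-miR-215 among them, and replicate 18 had miR-375 above.

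**Figure D3:**
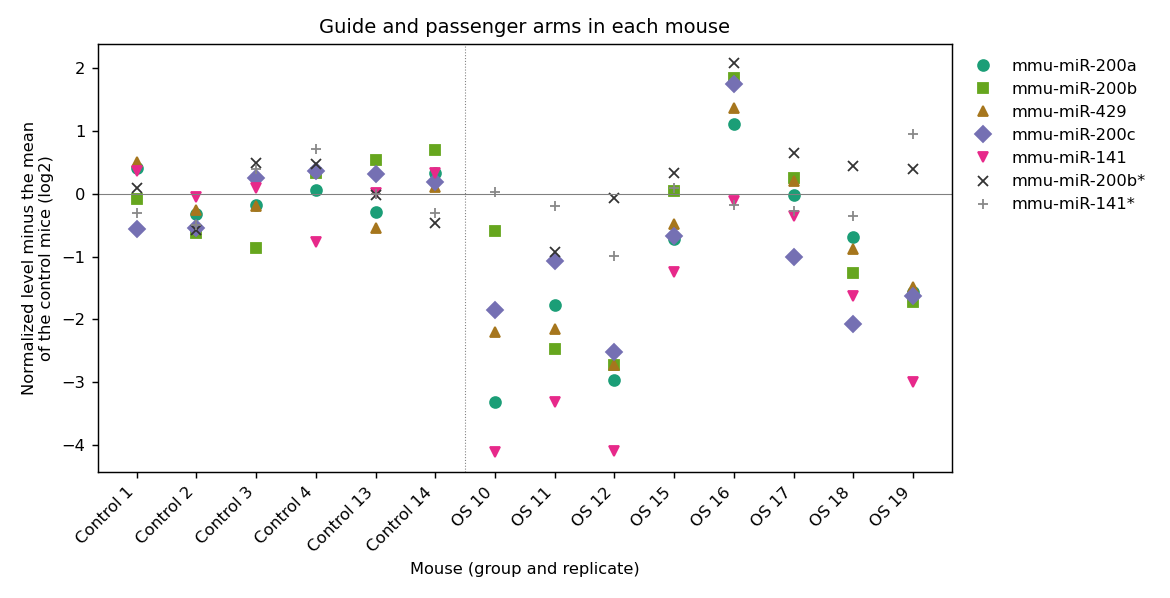
Normalized level of the 5 guide arms (coloured) and the 2 passenger arms (grey and black crosses) in each mouse, minus the mean of the 6 control mice (log2 scale). The dotted line divides control mice from mice with OS. The guide arms of OS replicates 10, 11 and 12 lie lowest, those of replicate 16 lie mostly above the controls, and the crosses stay nearer to 0 in replicates 10, 11, 12, 18 and 19.

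Whether members responded differently was asked within each mouse, by the difference in level between the wells of a pair, which needs no scaling between mice. A total of 11 pairs were compared between the groups by exact permutation tests, adjusted over the 11 pairs. miR-141 stood 0.99 lower against miR-200a in OS than in controls (standard error 0.23, 95% interval 0.49 to 1.49). The level of miR-200a over miR-141 was 1.01 ± 0.43 in controls (SD, n = 6) and 2.00 ± 0.43 in OS (SD, n = 8), both on the log2 scale (exact permutation p = 0.00300, adjusted p = 0.0330). It ran from 0.69 to 1.82 in controls and from 1.33 to 2.55 in OS, and the overlap came from control replicate 4, since the other controls ended at 1.06. This was the single pair past the threshold, and it joins miRNAs of the same seed from different chromosomes.
The call on this pair was lost in 10 of the 14 exact permutation tests that left out 1 mouse, with adjusted p from 0.0513 to 0.0684. These were the tests without control replicates 1, 2, 13 or 14 or OS replicates 10, 11, 12, 16, 18 or 19. The difference itself ran from 0.91 to 1.15 over the 14 tests, and it was 0.89 without OS replicates 10, 11 and 12 (adjusted p = 0.167). The sequences of miR-200a and miR-141 differ by 2 of 22 bases, and whether either well also reads the other miRNA was not tested.

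Guide arms fell against their own passenger arms in the mean, but neither pair of arms passed. The level of miR-141 over miR-141* was 3.81 ± 0.82 in controls (SD, n = 6) and 1.70 ± 1.68 in OS (SD, n = 8), a difference of -2.11 (95% interval -3.74 to -0.48, exact permutation p = 0.0180, adjusted p = 0.0989). Controls ran from 2.33 to 4.47. Mice with OS ran from -0.34 to 3.87, and 4 of 8 lay below every control. The level of miR-200b over miR-200b* was 3.92 ± 0.84 in controls (SD, n = 6) and 2.64 ± 0.98 in OS (SD, n = 7), a difference of -1.28 (-2.41 to -0.15, exact permutation p = 0.0297, adjusted p = 0.109). Without control replicate 3 this pair passed (adjusted p = 0.0486). With missing values set to Cq 38 the difference of this pair was -0.92 (adjusted p = 0.324 by exact permutation).
Guide arms were read on panel I and passenger arms on panel II. With each panel on its own mean the differences were -1.42 for miR-141 against its passenger and -0.65 for miR-200b. For comparison, the reference miRNAs have a well on each panel. Between the panels miR-103 differed with an SD of 0.13 cycles, miR-191 with 0.21 and miR-423-3p with 0.22 (n = 14 mice). Their mean levels in controls, 5.74, 3.24 and 2.45, lay above those of all family assays. The scatter between panels at the lower levels of the family was not measured.

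Mouse-named and rat-named assays of a miRNA followed each other to different degrees. The level by mmu-miR-200c minus that by rno-miR-200c was -0.40 ± 0.20 in controls (SD, n = 6) and -0.74 ± 0.42 in OS (SD, n = 8), a difference of -0.34 (95% interval -0.74 to 0.06, exact permutation p = 0.0942, adjusted p = 0.207). The level by mmu-miR-200b minus that by rno-miR-200b was 0.02 ± 0.79 in controls (SD, n = 6) and 0.64 ± 0.75 in OS (SD, n = 7), a difference of 0.62 (-0.32 to 1.55, exact permutation p = 0.167, adjusted p = 0.307). The SD over all mice was 0.37 for the miR-200c assays and 0.80 for the miR-200b assays. Both are larger than the SDs of the reference miRNAs on different panels given above, which were measured at higher levels.

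**Figure D4:**
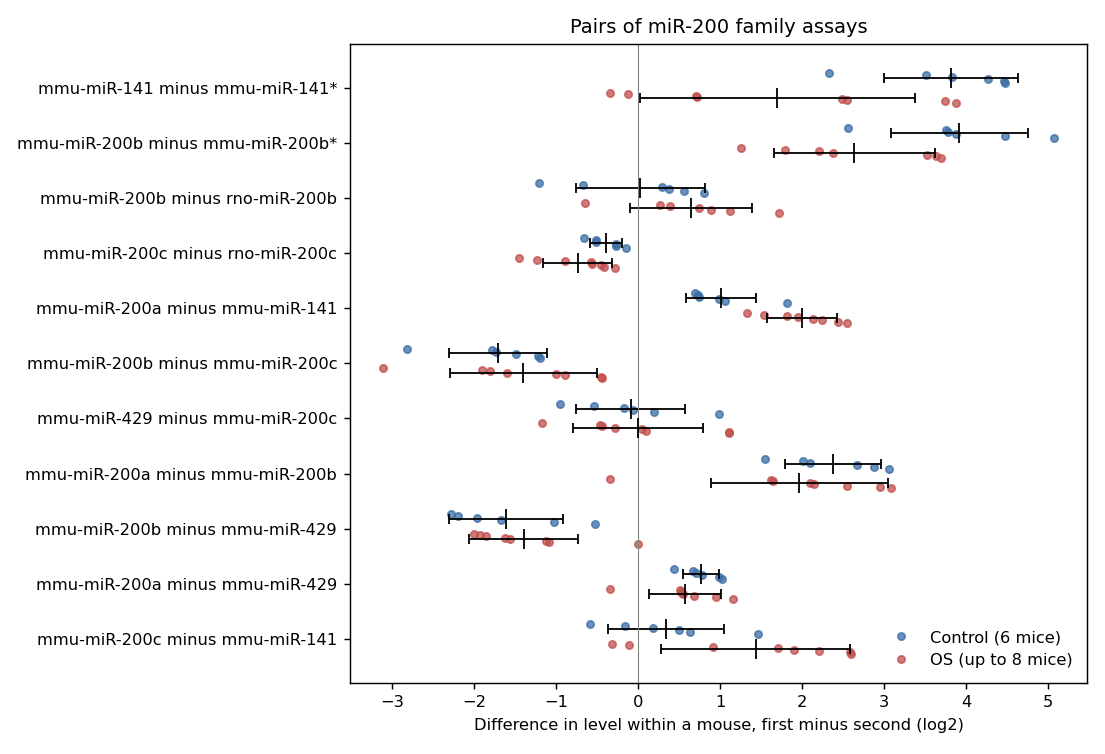
Difference in level within a mouse between the wells of 11 pairs, first minus second, on the log2 scale. Each point is 1 mouse (control blue, 6 mice; OS red, 7 or 8 mice), and bars give the mean and SD. miR-200a minus miR-141 lies higher in OS, at 2.00 against 1.01, and miR-141 minus miR-141* lies lower and spreads more widely.

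The clusters were compared through the mean of their mouse-named guide arms, as a description. The mean level of miR-200a, miR-200b and miR-429 was 1.18 ± 0.35 in controls (SD, n = 6) and 0.14 ± 1.40 in OS (SD, n = 8), with 5 of 8 mice below every control. The mean of miR-200c and miR-141 was 1.39 ± 0.23 (SD, n = 6) and -0.30 ± 1.35 (SD, n = 8), with 7 of 8 below every control. The differences were -1.04 and -1.68 on the log2 scale. The members of the second mean were unlike, at -1.14 for miR-200c and -2.23 for miR-141. Those of the first were -1.24 for miR-200a, -0.83 for miR-200b and -1.04 for miR-429. The lower mean on chromosome 6 is thus not shown for miR-200c taken singly. The chromosome 4 mean minus the chromosome 6 mean was -0.21 ± 0.40 in controls (SD, n = 6) and 0.44 ± 0.29 in OS (SD, n = 8).
Within the clusters the pairs behaved unlike each other. miR-200a and miR-429 kept the steadiest difference of the 11 pairs, with an SD of 0.36 over all 14 mice, and the group difference was -0.20 (95% interval -0.62 to 0.23, adjusted p = 0.582 by exact permutation). miR-200c over miR-141, which are 2 hairpins of 1 short span, changed by 1.10 (-0.07 to 2.26, adjusted p = 0.184 by exact permutation), with an SD of 1.11 over all mice. miR-200b against miR-200c, which share a seed, changed by 0.31 (-0.62 to 1.23, adjusted p = 0.590 by exact permutation). The other 3 pairs, miR-429 against miR-200c, miR-200a against miR-200b and miR-200b against miR-429, had differences from -0.41 to 0.21 and did not pass. All intervals of these uncalled pairs include differences of more than 0.6 log2 units, so they do not show that the members respond alike.

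The miRNAs nearest to each member were sought by the SD, over the 14 mice, of the difference in Cq, among the 276 miRNAs measured in every mouse. A low SD means that the miRNAs kept the same ratio from mouse to mouse. miR-200a was nearest to miR-429 (SD 0.36) and then to miR-141 (0.65), ahead of every miRNA outside the family. miR-200c was nearest to rno-miR-200c (0.37) and then to miR-429 (0.71), and miR-200b to miR-429 (0.66). The median SD against all other miRNAs was 1.37 to 1.48 for miR-200c, miR-429, miR-200a and miR-200b.
Outside the family, rno-miR-146b was among the 3 nearest to miR-200a (0.69), miR-429 (0.73), miR-200c (0.83) and rno-miR-200c (0.81). For miR-141 the nearest outside the family were miR-144 (0.80), a red blood cell miRNA, miR-32 (0.88) and miR-15a (0.92). Between miR-141 and its own passenger arm the SD was 1.72, at rank 123 among all miRNAs compared with it. This was slightly under the median SD of 1.79 of miR-141 against all other miRNAs. miR-141* was nearest to miR-425 (0.50), miR-17 (0.50) and miR-93 (0.51).

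Other epithelial miRNAs were taken from a list of skin, gut, kidney, gland and ciliated cell miRNAs, of which 17 assays were named. Of these, 2 were lower (miR-205 and miR-203, both of keratinocytes), none was higher and 15 did not pass (limma), beside the 6.44% and 6.19% of all miRNAs given above. With none higher by limma, none was higher at an unadjusted p under 0.05 or by the methods' t-test. The median log2 difference of the list was -0.62, and 15 of 17 were negative, beside 195 of all 388 miRNAs. Some of the 17 are arms or rat-named assays of the same miRNA, so their signs are not separate. miR-205 fell by 3.98 on the log2 scale (standard error 0.32, limma adjusted p = 1.20e-07), and the study chose it on these mice. miR-203 fell by 1.73 (standard error 0.47, limma adjusted p = 0.0295) over 6 controls and the 5 mice with OS that had a value. miR-34c, a miRNA of ciliated cells, did not pass (-1.68, limma adjusted p = 0.0504). Of the 6 gut, kidney and gland assays none passed. Their log2 differences were -0.06 for miR-192, -0.30 for miR-192*, -0.30 for miR-194, -0.07 for mmu-miR-215, -1.13 for rno-miR-215 and 0.10 for miR-375, with standard errors from 0.58 to 1.05. miR-205 had an SD of 0.37 among the mice with OS, where miR-141 had 1.61. The number of lower members of this list was 1 when scaled to the reference miRNAs, after scaling each panel separately and by the methods' t-test, and 1 without any one of control replicates 3 and 14 and OS replicate 16.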

How the data were processed

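Plasma miRNAs were measured by quantitative PCR (Exiqon mouse panels I and II, V2) in 6 control mice and 8 GEMM OS mice. The methods describe 6 further GEMM OS mice, which were not analysed here. The deposited values are Cq on a log2 scale, not normalized. The sources used here do not give whether they precede the authors' interplate calibration. A second deposited table pairs wells with miRNA names, and its columns of signed fold changes, p-values and adjusted p-values were not used, being the authors' own comparison. Its value columns do not all share 1 row order, since many adjusted p-values lie below the p-value on their line. All well names rest on the name column, whose pairing with wells was checked only through miRNAs named on both panels.

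Cq above 37 was set to missing, and wells of the same miRNA were averaged. The 388 miRNAs missing in under 75% of mice were scaled to their mean Cq, with missing values filled from the group for that mean only. They were tested with limma 3.58.1 in R 4.3.3, with Benjamini-Hochberg adjustment and missing values left missing in the fit. The fit was tested on simulated data. Pairs of wells were compared within mice by two-sided exact permutation tests (scipy 1.17.1), adjusted over 11 pairs. All 9 members were named, and outside the family the 3 miRNAs nearest to each member and called or leading epithelial miRNAs. The members and the lists (epithelial, red blood cell, platelet and myeloid, keratinocyte, gut, kidney and gland, liver, muscle) were chosen with earlier results of these data known. Cq carries no read depth, so no counting interval applies, and the number of mice limits the precision. Sequences and coordinates are from RefSeq (GRCm38.p6). Alternatives covered scaling, Cq limits, missing values, the methods' t-test, haemolysis and leaving out each mouse. Leaving out the mice with a marker under 3 was chosen after seeing the data.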

Additional observations from a re-analysis of the deposited data

Results flagged for a closer look

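Of 46 groups of values tested, 8 had a highest or lowest mouse far from the others by Dixon's criterion. For independent groups chance gives about 1 in 20. These groups share mice and wells, so the count of 8 cannot be set against that rate. OS replicate 16 stood above the other mice with OS for mmu-miR-200c (3.30, others -0.97 to 0.89) and for rno-miR-200c (3.88, others -0.07 to 1.18). Control replicate 4 stood below the other controls for mmu-miR-141 (0.46, others 1.17 to 1.58) and above them for miR-200a minus miR-141 (1.82, others 0.69 to 1.06). OS replicate 10 stood apart for miR-200a minus miR-200b (-0.35, others 1.62 to 3.08), miR-200b minus miR-429 (0.00, others -2.0 to -1.09) and miR-200a minus miR-429 (-0.35, others 0.51 to 1.15). Control replicate 3 stood apart for miR-200b minus miR-200c (-2.82, others -1.78 to -1.20). Levels and differences are on the log2 scale, and the causes were not tested.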

How the results depend on the processing

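The number of members called lower, 1 as reported, was 0 when scaled to the 3 reference miRNAs, with a t-test as in the methods, with haemolysis as a covariate, and without the mice with markers over 7 or those with markers under 3, and ran from 0 to 4 when 1 mouse was left out. Over all miRNAs, 49 were called, against 21 with unscaled Cq, 29 at a Cq limit of 35, 24 by the methods' t-test, 17 with the covariate, 20 without markers over 7, 8 without markers under 3 and 20 to 73 when 1 mouse was left out. The epithelial miRNAs called lower, 2 as reported, were 1 when scaled to the reference miRNAs, after scaling each panel separately and by the t-test, and 1 to 3 when 1 mouse was left out. Members detected in every mouse were 7, against 4 at a Cq limit of 35 and 7 to 8 when 1 mouse was left out. The number of pairs called, 1 as reported, was 0 at a Cq limit of 35, without markers over 7 and without markers under 3, and 0 to 2 when 1 mouse was left out.

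The sign turned for mmu-miR-141* when scaled to the median (0.02), without markers under 3 (0.05), and without control replicate 4 (0.03) or OS replicate 12 (0.00), with a range of -0.28 to 0.03 when 1 mouse was left out, for mmu-miR-200b* with unscaled Cq (-0.08), and for miR-429 minus miR-200c without markers over 7 (-0.24), without control replicate 13 (-0.08) and without OS replicates 17 or 18 (-0.07 each), with a range of -0.08 to 0.31 when 1 mouse was left out. Of 468 values for single members and pairs under alternatives, 434 kept direction and side of the threshold, 21 no longer passed, 4 newly passed and 9 turned sign. The cluster differences ran from -1.39 to -0.79 on chromosome 4 and from -2.04 to -1.46 on chromosome 6 when 1 mouse was left out, and from -1.47 to -0.26 and -2.12 to -0.99 under the other settings. The median over all miRNAs shifted by 0.14 when scaled to the median and by -0.45 with unscaled Cq. mmu-miR-200b* could not be tested at a Cq limit of 35, nor it and rno-miR-200b among miRNAs measured in every mouse. No paired analysis was possible because the labels do not give the litter of each mouse. Except where the alternative removes mice or miRNAs by its construction, the cause was not tested.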

Other observations

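Marker miRNAs of other cell types that reach plasma were read from lists, each beside 6.44% of all miRNAs called lower and 6.19% called higher (limma, adjusted p under 0.05). The counts are of assays, and some are arms or rat-named assays of the same miRNA. Of 5 red blood cell assays, 1 was lower (miR-144, -2.38) and the median log2 difference was -0.77. Of 4 platelet and myeloid assays, 1 was lower (miR-142-3p, -3.57), with a median of -0.84. Of 3 keratinocyte assays, 2 were lower (miR-205 and miR-203), with a median of -1.73. The passenger arm miR-203* was not called (0.27, limma adjusted p = 0.789) and had a value in 3 mice with OS. None of the 6 gut, kidney and gland assays (median -0.18) and none of the 6 muscle assays (median -0.42) passed in either direction. At an unadjusted p under 0.05 none of these was lower, and the muscle miRNA miR-206 was higher (1.26, limma adjusted p = 0.0978). The liver miRNA miR-122 had a log2 difference of 1.11 and did not pass. The part of these cells in the family's levels was not tested.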
